A study of Homo sapiens with 14 samples.

Results

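The genes described here are 10 genes of the contractile actin machinery that are usually linked to cells growing attached to a surface. They were chosen by name, as the rows whose gene identifier maps to CALD1, TPM1, TPM2, TAGLN, TAGLN2, MYL9, ACTN1, CNN2, CNN3 and FLNC in a GENCODE annotation of GRCh38. All 10 were found among the 58440 genes of the files, and 9 of them had at least 1 read in at least 1 library. The study mixed HEK-293T, an attached line derived from human embryonic kidney and kept in DMEM, with Jurkat, a line of leukemic human T cells that float in the medium and were kept in RPMI. Mixtures held 1000000 cells with 100%, 80%, 60%, 50%, 40%, 20% or 0% HEK cells, the rest being Jurkat cells, and each of the 7 conditions was read by RNA-seq in 2 libraries, 14 in all. Both libraries of a condition are technical replicates per the labels, and SD, SE and p-values here measure technical spread and not that between cultures. No agent or genetic change distinguished the conditions, and HEK and Jurkat each stand for 1 established line.

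Contraction in non-muscle cells rests on actin filaments that are pulled by myosin. Tropomyosin winds along the filament, and caldesmon and the calponins bind the filament and restrain myosin. Transgelins stabilize and bundle filaments, alpha-actinins and filamins cross-link them, and the regulatory light chain of myosin switches the motor on when it is phosphorylated. In attached cells these proteins build stress fibers that end at focal adhesions, structures that cells in suspension mostly lack.

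The sequences before 4 starts of transcription are shown first, those of the members that differed between the pure lines in the test described below. The 200 bases before each start were taken from RefSeq's promoter table (GRCh38.p14), at the entry whose start is that of GENCODE's canonical transcript. They are written 5′ to 3′ on the strand of the gene. CALD1 lies at chr7:134779434-134779633 on the plus strand, CNN3 at chr1:94927111-94927310 on the minus strand, FLNC at chr7:128830206-128830405 on the plus strand and CNN2 at chr19:1026408-1026607 on the plus strand. Capitals mark every match, on either strand, to the CArG box (the element bound by serum response factor), to CATTCC, to TATAAA or to GGGCGG.
CALD1: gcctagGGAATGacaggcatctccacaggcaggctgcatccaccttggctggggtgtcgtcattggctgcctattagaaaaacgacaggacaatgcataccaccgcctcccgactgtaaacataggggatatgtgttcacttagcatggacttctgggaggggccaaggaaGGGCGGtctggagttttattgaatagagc
CNN3: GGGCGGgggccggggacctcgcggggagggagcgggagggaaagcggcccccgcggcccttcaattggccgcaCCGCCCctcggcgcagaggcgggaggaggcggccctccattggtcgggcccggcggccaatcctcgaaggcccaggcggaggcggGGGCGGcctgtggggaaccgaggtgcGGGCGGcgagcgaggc
FLNC: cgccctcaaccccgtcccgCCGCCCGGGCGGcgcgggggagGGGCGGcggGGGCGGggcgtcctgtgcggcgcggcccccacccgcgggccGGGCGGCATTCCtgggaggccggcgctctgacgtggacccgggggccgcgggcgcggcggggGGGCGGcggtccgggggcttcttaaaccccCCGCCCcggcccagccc
CNN2: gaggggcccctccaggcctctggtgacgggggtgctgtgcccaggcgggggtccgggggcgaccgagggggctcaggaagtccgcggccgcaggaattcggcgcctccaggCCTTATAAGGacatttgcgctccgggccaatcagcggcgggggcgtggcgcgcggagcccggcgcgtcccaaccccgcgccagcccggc
The CArG box was present once, before CNN2, with its first base at position -89 from the start, and it was found in 0.982% of 35116 promoters of the same length. CATTCC was present before CALD1 at position -194 and before FLNC at position -103, against 9.51% of all promoters. GGGCGG occurred 1 time before CALD1, 4 times before CNN3 and 7 times before FLNC, and 40.1% of all promoters hold it. Windows of TPM2, TAGLN2 and ACTN1, which did not pass the test between the lines, held 3, 2 and 3 matches to it. RefSeq gives 4 starts for CALD1 and 2 for CNN3, and which of them these cells use was not tested. A GGGCGG match before FLNC adjoins the CATTCC match without sharing a base with it. TATAAA was found before none of the 4 genes and in 8.59% of all promoters. G and C made up 53.0% of the window of CALD1, 79.5% of that of CNN3, 86.0% of that of FLNC and 76.0% of that of CNN2, against a median of 59.0% over all promoters. These matches describe the letters in the window and no binding was measured.

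Libraries held from 4468822 to 28303668 counts on genes, so that 3 counts, taken as the floor, corresponded to between 0.106 and 0.671 CPM. CPM here means expected counts per 1000000 counts of the library on genes, without the ERCC spike-ins, which are synthetic RNAs added in equal amount to each mRNA sample. PCR copies carry no mark, and intervals and floors describe the error of counting alone. The pooling of libraries was set by the study, and spike-ins took from 0.674% to 7.65% of the counts. The names of the files divide the libraries into 2 sets, AS_1 and AS_2, whose meaning is not given in the sources used here. Both pure HEK libraries are in AS_2 and both pure Jurkat libraries in AS_1, and in these 4 libraries the effect of line and that of set cannot be told apart. The lines carried their markers. All 8 fixed HEK markers were higher and all 8 fixed Jurkat markers were lower in pure HEK libraries. Summed Jurkat markers ran from 2.77 to 6.45 CPM in HEK and from 2706 to 3234 CPM in Jurkat.

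The first question was whether the members differ between the pure lines. Of the 9 members that passed the filter on low counts, CALD1, CNN3 and FLNC were higher in HEK and CNN2 was higher in Jurkat (edgeR's quasi-likelihood test over 15794 genes, Benjamini-Hochberg adjusted p under 0.05). That is 3 members up and 1 down in HEK, where 24.2% of all genes tested were higher, 19% were lower and 43.2% differed in either direction. The median difference of the 9 members was 0.30 (log2, HEK minus Jurkat), and that of all genes was 0.07. TPM1, TPM2, TAGLN, TAGLN2 and ACTN1 did not pass the test. By this test 3 of the 10 members were higher in the attached line, and CNN2, also a gene of the group, was lower there.

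**Figure D1:**
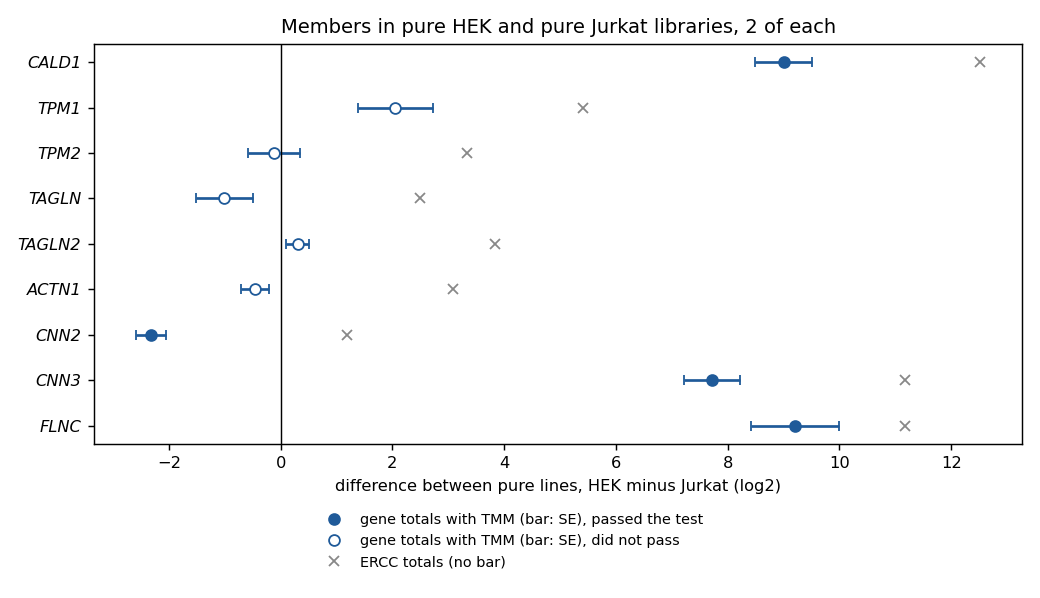
Each row is a member with counts, and the horizontal axis is the difference of pure HEK minus pure Jurkat libraries on the log2 scale (2 libraries each). Circles with SE bars come from edgeR with totals over genes, filled where the adjusted p was under 0.05, and crosses from spike-in totals. CALD1, CNN3 and FLNC lie far to the right and CNN2 to the left on gene totals, whereas every cross lies to the right of 0. The positions of CNN3 and FLNC depend on a prior count, since Jurkat libraries held 1 read or none.

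CALD1 encodes caldesmon, which binds actin and tropomyosin and holds back myosin (ENSG00000122786, chr7:134744252-134970729, plus strand). On the TPM scale, which is per length, it was the most abundant member in HEK. Its level was 775 and 739 CPM in the pure HEK libraries, and 2.01 and 0.645 CPM in the pure Jurkat libraries, where 9 and 4 reads were counted. The groups do not overlap. The difference was 9.00 ± 0.51 (log2, SE, adjusted p = 0.000643 by edgeR), and the ratio of the summed counts was 618, with an exact 95% interval from 361 to 1161. As a share of reads, not per length, CALD1 made up 65.4% and 72.1% of the summed CPM of the 10 members in pure HEK libraries, and 0.274% and 0.724% in pure Jurkat libraries.

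CNN3 encodes the acidic calponin of non-muscle cells (ENSG00000117519, chr1:94896949-94927223, minus strand). Its level was 60.4 and 38.7 CPM in pure HEK libraries, and 1 read was counted in each pure Jurkat library, 0.224 and 0.161 CPM. The 2 lines do not overlap, although the HEK libraries differ from each other. The ratio of summed counts was 251, with a wide counting interval from 69.4 to 2076, and the adjusted p by edgeR was 0.000737.

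FLNC encodes filamin C, a cross-linker of actin that is best known from striated muscle (ENSG00000128591, chr7:128830406-128859274, plus strand). It had 79 and 138 reads in the pure HEK libraries, 8.36 and 9.10 CPM, and 0 reads in both pure Jurkat libraries. Against the floor of 3 counts over both Jurkat libraries, 0.281 CPM, its level in HEK was at least 31.4-fold higher (adjusted p = 0.00268 by edgeR). FLNC spans a long mRNA, and per length it was among the lowest members even in HEK, at 0.95 ± 0.0566 TPM (SD, n = 2). As a share of reads, its mean in HEK of 8.73 CPM lay above those of CNN2 at 5.43 CPM and TAGLN at 2.16 CPM. Its antisense neighbour FLNC-AS1 overlaps it, and no source states whether reads were assigned by strand.

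CNN2 encodes a calponin found in smooth muscle and also in blood cells (ENSG00000064666, chr19:1026586-1039068, plus strand). It was counted at 5.03 and 5.84 CPM in pure HEK libraries and at 20.1 and 26.7 CPM in pure Jurkat libraries. Both Jurkat libraries lay above both HEK libraries, by -2.32 ± 0.27 on the log2 scale as HEK minus Jurkat (SE, adjusted p = 0.00294 by edgeR). With spike-in totals as library sizes the direction turned, to 1.19 (adjusted p = 0.0388), and over 11 alternatives the adjusted p of CNN2 ran from 1.90e-09 to 0.0388. This scale moves all genes, whose median difference rose from 0.07 to 3.61, and relative to that median CNN2 stayed lower in HEK. None of the counts of CNN2, of ACTN1 or of TAGLN was a whole number as deposited, as RSEM shares a read out among the genes it could come from.

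Calponin genes thus moved in opposite directions between the lines. CNN1, the smooth muscle calponin, was too low to be tested, with 0.340 CPM in HEK and 0.112 CPM in Jurkat on average.

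The 2 tropomyosins among the members did not pass the test between the pure lines. TPM1 (ENSG00000140416, chr15:63042620-63071915, plus strand) was at 32.0 and 128 CPM in pure HEK libraries and at 15.9 and 17.2 CPM in pure Jurkat libraries. The HEK libraries lie above the Jurkat libraries but differ strongly between themselves. The difference was 2.05 ± 0.67 (SE, adjusted p = 0.0593 by edgeR). It passed in 6 of 11 alternatives, among them the fit with the spread of all 14 libraries (2.04, adjusted p = 0.00819) and DESeq2 (2.01, adjusted p = 0.00566), and the adjusted p over the alternatives ran from 1.53e-17 with spike-in totals to 0.186. Without the first HEK library the value was 2.75 (adjusted p = 0.00479), and without the second it was 0.74.

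The transcript length that RSEM gives a gene, weighted by its isoforms, varied between libraries for TPM1. It was 1370 bases in the HEK library with 32.0 CPM and 975 bases in that with 128 CPM. At 20% HEK, where TPM1 stood at 98.5 and 92.4 CPM, the lengths were 918 and 901 bases, the shortest of the 14 libraries. In pure Jurkat, where TPM1 was lowest, they were 1042 and 996 bases. The part of isoform use in the level of TPM1 was not tested. A pair of lncRNAs lies antisense to the gene, TPM1-AS among them.

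TPM2 (ENSG00000198467, chr9:35681992-35690056, minus strand) encodes beta-tropomyosin. It was at 9.73 and 17.5 CPM in HEK and at 8.06 and 17.1 CPM in Jurkat, and these ranges overlap. The difference of -0.12 ± 0.47 (SE, adjusted p = 0.857 by edgeR) changed sign when single libraries were left out, between -0.59 without the second HEK library and 0.56 without the second Jurkat library.

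The transgelins, which bundle actin, did not pass the test between the lines. TAGLN2 (ENSG00000158710, chr1:159918107-159925507, minus strand), the form of non-muscle and blood cells, was at 40.5 and 42.7 CPM in HEK and at 27.3 and 30.3 CPM in Jurkat. The libraries of HEK lay above those of Jurkat, with a difference of 0.30 ± 0.21 that did not pass the test (SE, adjusted p = 0.285 by edgeR). TAGLN (ENSG00000149591, chr11:117199370-117207464, plus strand), the smooth muscle form, was near the bottom of what was counted, at 2.05 and 2.27 CPM in HEK and 1.94 and 5.11 CPM in Jurkat. The protein-coding gene PCSK7 runs antisense across it. The difference of TAGLN was -1.01 ± 0.51 (SE, adjusted p = 0.168 by edgeR). Without the first Jurkat library, which held 8.67 of its reads, it was -1.50 with an adjusted p of 0.0363, within a range from 0.000255 to 0.872 over 11 alternatives.

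ACTN1, alpha-actinin 1 (ENSG00000072110, chr14:68874128-68979440, minus strand), anchors and cross-links filaments in stress fibers. On the TPM scale it came after CALD1 in HEK and first in Jurkat. Its level was 141 and 147 CPM in HEK and 203 and 138 CPM in Jurkat. The ranges overlap, and the difference was -0.47 ± 0.25 (SE, adjusted p = 0.189 by edgeR). MYL9, the regulatory light chain of smooth muscle and non-muscle myosin (ENSG00000101335, chr20:36541497-36551447, plus strand), had 0 reads in all 14 libraries. Over 189945979 counts in all this allows a level of up to 0.0158 CPM, and 1964 of 19773 protein-coding genes shared such a 0. The related light chain genes were well above the floor, MYL12A at 30.4 CPM in HEK and 70.0 CPM in Jurkat, and MYL12B at 34.1 CPM and 54.7 CPM.

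Levels of different genes are set side by side here per length, on the TPM scale of the files. In HEK the order was CALD1 at 738 ± 16 TPM, ACTN1 at 126 ± 10.7, TPM1 at 78.9 ± 78.4, CNN3 at 33.8 ± 19.3, TAGLN2 at 26.0 ± 1.11, TPM2 at 13.6 ± 5.83, CNN2 at 2.43 ± 0.212, TAGLN at 1.59 ± 0.0424 and FLNC at 0.95 ± 0.0566 TPM (SD, n = 2 each). TPM1 overlapped both of its neighbours in this order, and CNN3 overlapped TAGLN2. In Jurkat, ACTN1 at 168 ± 44.7 TPM was followed by TAGLN2 at 17.5 ± 1.04, TPM1 at 16.1 ± 1.24, TPM2 at 12.9 ± 8.90, CNN2 at 11.4 ± 2.52, TAGLN at 2.84 ± 1.42, CALD1 at 1.27 ± 0.566 and CNN3 at 0.255 ± 0.247 TPM. From TAGLN2 down to CNN2, each member overlapped the next one. CALD1 was thus first in HEK and seventh in Jurkat among the members on this scale. The study primed cDNA with oligo-dT primers that carried the barcode, and counts from such a design need not grow with transcript length. Whether they do here was not tested, so this order holds for the TPM scale only. The order depends on the scale. By mean CPM in HEK, FLNC at 8.73 lay above CNN2 at 5.43 and TAGLN at 2.16.

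The next question was how the members follow the share of HEK cells in the mixtures. Under additive mixing, a gene's level is the mean of its levels in the pure lines, weighted by the share of RNA from each. HEK libraries held 10.03 times as many gene counts per spike-in count as Jurkat libraries, and from 7.90 to 12.2 times in the 4 pairs of 1 library of each line. With this coefficient, mixtures of 20%, 40%, 50%, 60% and 80% HEK cells are expected to draw 71.5%, 87.0%, 90.9%, 93.8% and 97.6% of their RNA from HEK cells. Most of the change is therefore expected below 20% HEK. The coefficient rests on the pure libraries alone. Their gene counts per spike-in count were 147 and 97.3 for HEK, 12.1 and 12.3 for Jurkat. Among mixed libraries this ratio was 46.6 in the first library of 80% HEK, 123 in the second. Every other mixed library had a ratio of 56.1 or less. The second library of 50% HEK, with 25.5, lay below the second of 20% HEK, with 28.0. Whether the mixed libraries follow the coefficient was not tested, and shares fitted in each library are set beside it further below.

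**Figure D2:**
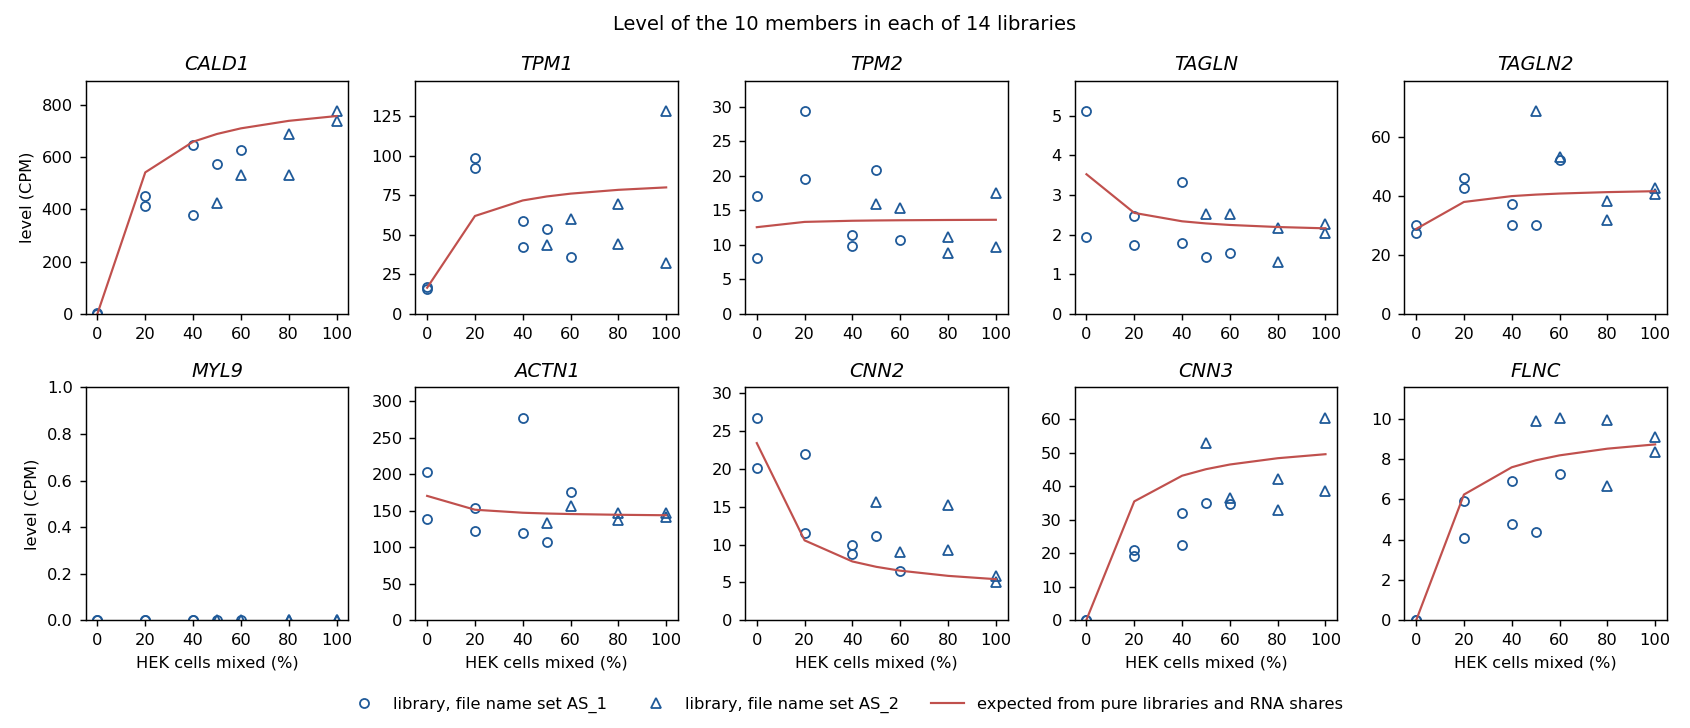
Each panel is a member, with the percentage of HEK cells mixed on the horizontal axis and the level in CPM on the vertical axis. Circles and triangles are single libraries of the file name sets AS_1 and AS_2, and the line is the level expected from the means of the pure libraries and the RNA shares. CALD1, CNN3 and FLNC are near 0 at 0% HEK and well above it in every library from 20% HEK on, CNN2 has its highest mean at 0% HEK, and MYL9 is at 0 throughout.

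CALD1 stood at 412 and 451 CPM at 20% HEK, 646 and 380 at 40%, 575 and 423 at 50%, then 532 and 627 at 60%, and 689 and 531 at 80%. All 10 mixed libraries lay below both pure HEK libraries and far above both pure Jurkat libraries. CNN3 stood at 19.1 and 21.1 CPM at 20% HEK, 22.5 and 32.0 at 40%, 34.9 and 52.9 at 50%, then 36.5 and 34.8 at 60%, and 32.9 and 42.3 at 80%. FLNC stood at 4.09 and 5.90 CPM at 20% HEK, 4.79 and 6.92 at 40%, 4.38 and 9.88 at 50%, then 10.0 and 7.27 at 60%, and 6.66 and 9.95 at 80%. Each of the 3 genes had its lowest mean of the mixtures at 20% HEK.

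CNN2 stood at 21.9 and 11.6 CPM at 20% HEK, 8.75 and 9.95 at 40%, 11.1 and 15.6 at 50%, then 9.00 and 6.52 at 60%, and 9.23 and 15.2 at 80%. These values overlap between conditions, and all lie above the pure HEK libraries. TPM1 had its highest mixed values at 20% HEK, and its other mixed libraries ran from 36.3 to 69.7 CPM. TPM2 was highest at 20% HEK as well, at 29.3 and 19.6 CPM, with 1 library at 50% HEK between these values at 20.8 CPM. TAGLN2 ran from 30.05 to 68.6 CPM over the 10 mixed libraries with a median of 40.5, ACTN1 from 107 to 277 CPM with a median of 142, and TAGLN from 1.305 to 3.34 CPM with a median of 1.97.

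Over neighbouring conditions, the step from 0% to 20% HEK was the one in which members passed the test (edgeR over all 14 libraries, 19129 genes). CALD1 rose by 8.30 ± 0.57 (log2, SE, adjusted p = 2.16e-06) and TPM1 by 2.40 ± 0.53 (adjusted p = 0.00604). CNN3 (adjusted p = 2.44e-06) and FLNC (adjusted p = 0.000151) rose from 1 read and 0 reads per library. That is 4 of 9 members, where 26.2% of all genes were called in either direction. CNN2, at -0.61 ± 0.33 (adjusted p = 0.194), did not pass. TAGLN2 passed when the second library at 50% HEK was left out (0.54, adjusted p = 0.0458) and not otherwise, with adjusted p from 0.0458 to 0.467 over 19 alternatives. TPM2, at 0.82 (adjusted p = 0.157), passed without a filter on low counts (0.99, adjusted p = 0.0254) and with spike-in totals (1.77, adjusted p = 0.0475), and its adjusted p reached 0.592.

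No member passed in the steps from 20% to 100% HEK, where the 9 members gave 45 tests. Unadjusted p was under 0.05 in 7 of these by edgeR, 4 of them for CNN2, and DESeq2 called 0. Of all 19129 genes, 2213, 1491, 1235, 1630 and 1142 had an unadjusted p under 0.05 by edgeR in the 5 steps, in order of HEK percentage. Of the 19 alternatives, 1 gave calls here. Without a filter on low counts, TPM2 passed from 20% to 40% (-1.26, adjusted p = 0.00983) and CNN2 from 80% to 100% HEK (-1.20, adjusted p = 0.0324). Of all genes, 0.0209% were called from 20% to 40%, 0% in each of the 3 steps from 40% to 80%, and 0.951% from 80% to 100%. For these 3 steps with 0 calls by edgeR, DESeq2 called 83, 68 and 157 genes. The largest change of CNN2 was from 80% to 100% HEK, -1.21 ± 0.34 (adjusted p = 0.261 by edgeR).

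Within the 10 mixed libraries a slope on the percentage of HEK cells was fitted. Under additive mixing the level of CALD1 would go only from 542 CPM at 20% HEK to 739 CPM at 80% HEK. A shallow slope is thus expected even for a member found almost only in HEK. None of the 9 members passed by edgeR or by DESeq2, and 4 had an unadjusted p under 0.05 by edgeR, namely TPM1, TPM2, CNN3 and FLNC. Over all genes, 3090 of 17242 had an unadjusted p under 0.05 by edgeR. Of 17242 genes, 0.528% rose and 5.08% fell with the percentage of HEK cells. The direction of these calls differed by file name set, with 0 genes rising and 203 falling within AS_1, and 434 rising and 165 falling within AS_2. The slopes per 10 percentage points were -0.20 ± 0.06 for TPM2 (log2, SE, adjusted p = 0.0909 by edgeR), -0.13 ± 0.06 for TPM1 (adjusted p = 0.243), 0.14 ± 0.05 for CNN3 (adjusted p = 0.154), 0.13 ± 0.05 for FLNC (adjusted p = 0.226) and 0.07 ± 0.05 for CALD1 (adjusted p = 0.545). The slope of CNN2 was -0.09 ± 0.07, that of TAGLN -0.07 ± 0.07, that of TAGLN2 -0.03 ± 0.05 and that of ACTN1 -0.02 ± 0.06. Without the second library at 50% HEK, CNN3 passed with a slope of 0.15 (adjusted p = 0.0376, from 0.00106 to 0.659 over 19 alternatives).

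Within the file name sets, some slopes had opposite signs. CNN3 had a slope of 0.21 within the 6 mixed libraries of AS_1 and -0.06 within the 4 of AS_2, and FLNC 0.08 and -0.03. TPM1 had -0.34 and 0.15, and CNN2 -0.30 and 0.01. CALD1 kept a positive slope, 0.13 and 0.23, and TPM2 a negative one, -0.24 and -0.17. The mixed libraries of AS_1 hold 20% to 60% HEK and those of AS_2 50% to 80%, so that the sets cover different parts of the range.

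Counts per spike-in count also carry the total RNA of a mixture, and on this scale the gradients were steeper. CALD1 had 93.1 ± 29.9 counts per 1000 spike-in counts in pure HEK, 48.8 ± 23.6 at 80%, 25.6 ± 13.6 at 60%, 18.2 ± 10.5 at 50%, 21.0 ± 11.2 at 40%, 9.90 ± 3.86 at 20% and 0.0161 ± 0.0116 in pure Jurkat (SD, n = 2 each). CNN3 had 6.34 ± 3.63 in pure HEK and 0.462 ± 0.183 at 20% HEK, and FLNC 1.06 ± 0.245 and 0.118 ± 0.0665. With spike-in totals as library sizes, 7 of 9 members rose with the percentage of HEK cells, CNN2, TPM1, TAGLN2 and ACTN1 among them, as did most genes, whose median slope went from 0.0011 to 0.31.

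Observed levels in the mixtures were then set against the levels expected under additive mixing. CNN2 lay above the expected level, by 0.66 ± 0.12 over the 10 mixed libraries (log2, SE, adjusted p = 0.00292 by edgeR). CALD1 lay below it by -0.34 ± 0.09 (adjusted p = 0.0227) and CNN3 by -0.44 ± 0.11 (adjusted p = 0.0139). For the members, 1 above and 2 below compare with 7.85% of 15794 genes above and 8.6% below. CALD1 was below in 10 of 10 libraries, at 0.576 to 0.980 times the expected level, CNN3 in 9 of 10, at 0.521 to 1.17 times, and CNN2 was above in 9 of 10, at 0.995 to 2.596 times.

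**Figure D3:**
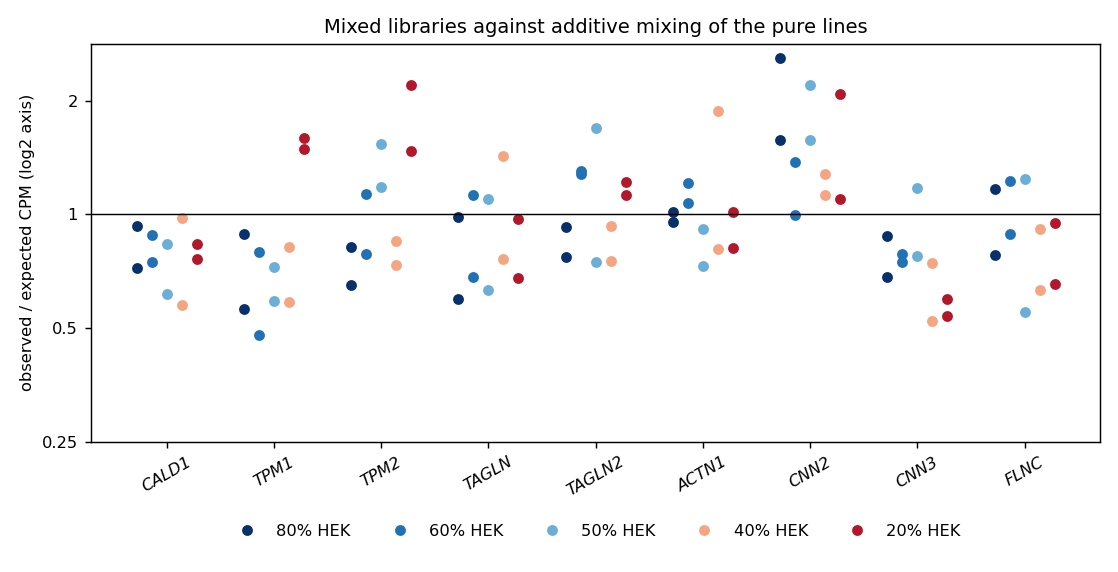
Each point is a mixed library, colored by its percentage of HEK cells, and the vertical axis is the observed over the expected CPM on a log2 axis. The line at 1 marks additive mixing of the pure libraries. All 10 points of CALD1 lie below 1 and 9 of 10 of CNN2 above it, while TPM1 lies above 1 only at 20% HEK.

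FLNC (-0.16 ± 0.13, adjusted p = 0.405), TPM1 (-0.28 ± 0.14, adjusted p = 0.172), TAGLN (-0.18 ± 0.15), TPM2 (0.13 ± 0.12), TAGLN2 (0.10 ± 0.12) and ACTN1 (0.06 ± 0.12) did not pass by edgeR. TPM1 was above the expected level in both libraries at 20% HEK, 1.54 times on average, and below it in the 8 others. TPM2 was 1.83 times the expected level on average at 20% HEK and 0.734 times at 80%. No departure of a member went beyond a log2 difference of 1 when that was tested (0 of 9 members and 20 of all genes, by edgeR's glmTreat).

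These departures take the expected level as known, and they moved with the pure libraries it came from. Without the first HEK library CNN3 was at -0.04 (adjusted p = 0.812), CALD1 at -0.27 (adjusted p = 0.0508) and TPM1 at -0.91 (adjusted p = 0.000819). Without the second HEK library TPM1 was at 0.96 (adjusted p = 3.95e-05) and TPM2 at 0.56 (adjusted p = 0.00242). Without the second library at 80% HEK, CALD1 was at -0.33 (adjusted p = 0.0510). With the lowest RNA coefficient of a pair of pure libraries, an alternative chosen after seeing the data, CALD1 was at -0.30 (adjusted p = 0.0455), CNN3 at -0.39 (adjusted p = 0.0244) and CNN2 at 0.59 (adjusted p = 0.00768). Coefficients outside the range of these pairs were not tested. Under the 19 alternatives CALD1 passed in 15, CNN2 in 18 and CNN3 in 17, and the adjusted p reached 1 for each in the test beyond a log2 difference of 1. None of the alternatives used the file name set. The expected levels rest on HEK libraries of AS_2 and Jurkat libraries of AS_1. CNN3 averaged 27.4 CPM in the 6 mixed libraries of AS_1 and 41.2 CPM in the 4 of AS_2, CALD1 515 and 544 CPM, and CNN2 11.6 and 12.3 CPM. The sets also differ in HEK percentage, and the part of the set in the departures was not tested.

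Markers of the lines were set against the same expected levels. Of the 8 Jurkat markers 7 lay above the expected level and none below, with a median of 1.12, whereas none of the 8 HEK markers was called, with a median of 0.01, and the median of all genes was 0.01. When the HEK share of RNA was instead fitted in each library to all genes but the members, it ran from 65.9% at 20% HEK to 96.7% at 80% HEK. At 20% HEK the fitted shares were 65.9% and 67.6%, below the 71.5% given by the coefficient. At 80% HEK they were 92.2% and 96.7%, below its 97.6%. At 40%, 50% and 60% HEK the libraries lay on both sides of the coefficient's share. The fitted share did not rise evenly. Libraries of 40% HEK gave 76.8% versus 88.3%, those of 50% HEK 82.9% versus 95.3%. The first library of 80% HEK, with 92.2%, lay below the first of 60% HEK, with 95.2%. The departures above gave both libraries of a condition the same share. With the fitted shares, CNN2 was at 0.60 (adjusted p = 0.0154), CNN3 at -0.39 (adjusted p = 0.0170) and CALD1 at -0.28 (adjusted p = 0.0870). Beyond this fit, the part of the RNA shares in the departures was not tested.

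Mutual linearity describes how far the profiles of 2 genes over the libraries coincide once each is divided by its sum. The coefficient used is the mean of the coefficients of determination of the identity line in both directions, over 14 libraries that share their 2 sources of RNA. Of 36 pairs of the 9 members, 4 had a coefficient above 0. The highest was that of CNN3 and FLNC at 0.756, followed by CALD1 and CNN3 at 0.516 and CALD1 and FLNC at 0.433. The fourth, CNN2 and TAGLN, was at 0.0216, and the lowest, CALD1 and CNN2, at -2.72. These values are a description and carry no test, and the share of all gene pairs above 0 was not computed.

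**Figure D4:**
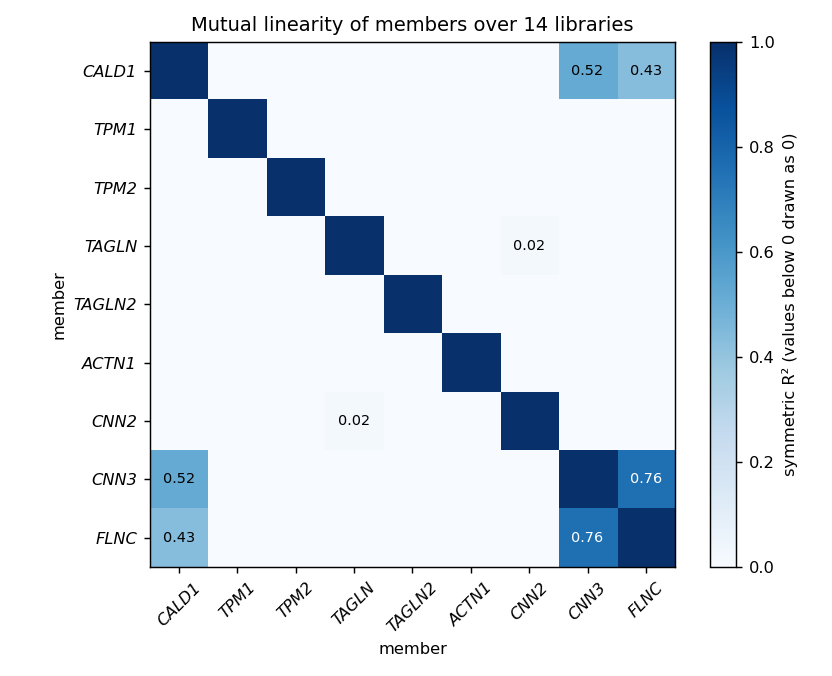
Rows and columns are the 9 members with counts, and color gives the symmetric coefficient of determination of each pair over 14 libraries, with values below 0 drawn as 0. Off the diagonal, color appears for the 3 pairs among CALD1, CNN3 and FLNC, and faintly for CNN2 with TAGLN at 0.02.

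Among 9218 genes with a mean of at least 10 CPM, the profiles closest to CALD1 were those of CCDC80 at 0.969 and EVI5 at 0.955. Those closest to CNN3 were SULF2 at 0.906, GJA1 at 0.897 and LRATD2 at 0.891, and those closest to FLNC were GAL at 0.956, ENSG00000213058 at 0.946 and CRISPLD1 at 0.938. The mean of these 8 genes in Jurkat was 4.71 CPM for EVI5 and lower for the others, as for CCDC80 with 33.6 CPM in HEK and 0.161 CPM in Jurkat. CNN2 was closest to GYPC at 0.826, with 5.15 CPM in HEK and 42.3 CPM in Jurkat, then to CENPS-CORT at 0.796 and FAT1 at 0.776. TAGLN2 was closest to SLC35A4 at 0.939, GPX4 at 0.924 and PPIH at 0.919. For ACTN1 the closest was RNF170 at 0.775, for TPM2 HYOU1 at 0.758, for TAGLN PDPR at 0.685 and for TPM1 VAMP4 at 0.651.

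Other genes of the machinery were taken from fixed lists in 4 roles, and within each role the 5 with the highest mean are named first. Paralogs of the members moved in both directions between the pure lines, with 2 of 10 tested higher and 3 lower in HEK, and a median difference of -0.26. TPM4, a tropomyosin of non-muscle cells, was at 160 CPM in HEK and 678 CPM in Jurkat, lower in HEK by -2.31 ± 0.28 (SE, adjusted p = 0.00331 by edgeR). TPM3, at 572 and 541 CPM, did not pass (-0.15 ± 0.34). ACTN4, an alpha-actinin of non-muscle cells, was higher in HEK by 0.75 ± 0.20 (adjusted p = 0.0339). The essential light chains MYL6 and MYL6B did not pass (-0.03 ± 0.19 and -0.08 ± 0.19). The others that passed, named after their values were seen, were ACTN2 upward and MYL12A and MYL12B downward.

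Of the actins and myosin heavy chains, 2 of 7 tested were higher and 3 lower in HEK, with a median of 0.23. ACTB, at 621 CPM in HEK and 1342 CPM in Jurkat, was lower by -1.34 ± 0.20 (adjusted p = 0.00588 by edgeR), and ACTG1, at 1190 and 868 CPM, did not pass (0.23 ± 0.26). The pooling of the libraries used Actb qPCR values. MYH9, a non-muscle myosin, was lower in HEK by -1.38 ± 0.32 (adjusted p = 0.0225), whereas MYH14 was higher, at 21.9 against 0.448 CPM (5.29 ± 0.42, adjusted p = 0.00109). MYH10, at 647 and 392 CPM, did not pass (0.49 ± 0.26). ACTA2 passed upward and MYH11 downward.

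Of the regulators of contraction, 2 of 12 were higher and 3 lower in HEK, with a median of -0.11. ROCK1, the kinase that promotes contraction, was lower in HEK by -1.25 ± 0.24 (adjusted p = 0.0122 by edgeR), as was PPP1R12A, the targeting subunit of myosin phosphatase, by -1.16 ± 0.30 (adjusted p = 0.0296). RHOA, the GTPase upstream of ROCK, was higher by 0.72 ± 0.20 (adjusted p = 0.0377), and ROCK2 and PPP1CB did not pass (-0.42 ± 0.20 and 0.05 ± 0.20). RHOB passed upward and ARHGEF2 downward.

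Of the actin binders at adhesions and the SRF axis, 3 of 15 tested were higher and 2 lower in HEK, with a median of -0.01. VCL, vinculin of focal adhesions, was at 120 CPM in HEK and 28.5 CPM in Jurkat, higher by 1.83 ± 0.39 (adjusted p = 0.0165 by edgeR). LPP, a LIM protein of adhesions, was lower by -2.40 ± 0.22 (adjusted p = 0.00156), and TLN1 (-0.51 ± 0.40), LIMA1 (-0.78 ± 0.61) and PDLIM5 (0.30 ± 0.22) did not pass. PDLIM7 and LMOD1 passed upward and SVIL downward. SRF itself was at 20.5 CPM in HEK and 18.7 CPM in Jurkat (-0.10 ± 0.22, adjusted p = 0.733). The shares of all genes were 24.2% higher and 19% lower. With spike-in totals as library sizes, every tested gene of the 4 roles was higher in HEK, so that each direction named as lower turned. Relative to the median of all genes on that scale, 2 of 10 paralogs, 4 of 7 actins and myosins, 6 of 12 regulators and 6 of 15 adhesion and SRF genes were above it.

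In the mixtures, 2 of 45 tested genes of the 4 roles fell with the percentage of HEK cells and 0 rose, that is 4.44% falling where 5.08% of all genes fell. MYH9 fell by 0.27 per 10 percentage points (log2, adjusted p = 0.0193 by edgeR) and ARHGEF2 by 0.14 (adjusted p = 0.0180). Against additive mixing, 2 of 44 lay above and 2 below, 4.55% each, where 7.85% of all genes lay above and 8.6% below. TPM3 lay below the expected level by -0.84 (adjusted p = 0.000269) and MYH14 by -0.36 (adjusted p = 0.0467), whereas MYL12B at 0.37 (adjusted p = 0.0230) and LIMA1 at 0.55 (adjusted p = 0.0380) lay above it. These genes were picked for having passed.

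Markers of other contractile cells were checked beside the members. Summed over 6 smooth muscle markers the level was 13.0 and 17.4 CPM in pure HEK libraries and 6.08 and 9.90 CPM in pure Jurkat libraries, with ACTG2 at 0 in HEK and DES and LMOD1 at 0 in Jurkat. LMOD1 made up most of the HEK sum, at 12.3 CPM on average. MYH11 made up most of the Jurkat sum, at 6.35 CPM on average against 1.69 CPM in HEK. Summed over 6 fibroblast markers it was 12.3 and 13.1 CPM in HEK and 2.94 and 4.19 CPM in Jurkat, nearly all from COL1A1, at 10.4 CPM in HEK.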

How the data were processed

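The members and gene lists were chosen with earlier results of these data known. Poly-A RNA was sequenced from 14 libraries, 2 for each of 7 conditions. The authors aligned reads with STAR 2.6.1b against GRCh38 plus ERCC and quantified genes by RSEM 1.3.1, per the labels. They deposited, for each library, expected counts, which are not normalized, and TPM, scaled over genes and spike-ins together. The annotation is not given in the sources used here. The series table repeats the expected counts of the libraries and was not used.

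Expected counts were rounded and tested with edgeR 4.0.16 (glmQLFit, glmQLFTest, TMM, filterByExpr) in R 4.3.3, with Benjamini-Hochberg adjustment at 0.05 over all genes tested. SE is the absolute log2 difference over the root of F. DESeq2 1.42.0 and limma 3.58.1 (on log2(TPM + 1)) were alternatives. The additive expectation, with a lowest level of 0.2 CPM, entered as an offset, and the intercept was tested at the mean percentage. Gene symbols and coordinates are from GENCODE release 44. The steps were tested on simulated data. The named genes are all members, at most 5 genes per role by mean CPM, and the 3 genes most like each member, of which 1 is not reported here. Other genes of the roles that passed, and SRF, CNN1 and the light chains beside MYL9, were named after their values were seen. Replicates of each condition differed beyond sampling noise (chi-square per degree of freedom from 20.7 to 147) and were kept apart.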

Additional observations from a re-analysis of the deposited data

How the results depend on the processing

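The number of members that passed between the pure lines was 4, and leaving out single libraries gave 4 to 5. Spike-in totals as library sizes moved it to 9 and reversed TPM2 (3.34), TAGLN (2.49), ACTN1 (3.08) and CNN2 (1.19), all now higher in HEK. For the slope in the mixtures the number was 0, from 0 to 1 without single libraries, and 7 with spike-in totals, which reversed TPM1 (0.20), TAGLN2 (0.28), ACTN1 (0.28) and CNN2 (0.26). Over neighbouring conditions there were 4 calls of members, from 4 to 5 without single libraries, and 7 without a filter on low counts, 5 of them from 0% to 20% HEK. Against additive mixing it was 3, from 2 to 5 without single libraries, and 0 in the test beyond a log2 difference of 1. TPM1 ran from -0.91 without HEK100 replicate 1 to a reversed 0.96 without HEK100 replicate 2.

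Of all genes, 6827 were called between the pure lines, 15125 with spike-in totals, and 3131 or 3194 without 1 HEK library. Of the calls, 56.0% were higher in HEK, 66.2% with library totals, 68.2% with TPM and limma, and 96.6% with spike-in totals. The slope called 967 genes, 13697 with spike-in totals, 512 with the file name set as covariate, 203 within AS_1 (0% of them rising), 599 within AS_2 (72.5% rising, against 9.41% over both sets) and 572 without HEK20 replicate 1. Neighbouring conditions called 5195, 9469 without a filter, and 3086, 3358 and 3276 without HEK20 replicate 1, HEK20 replicate 2 or HEK0 replicate 2. Additive mixing called 2599, 20 beyond a log2 difference of 1 and 4864 without HEK100 replicate 2. With 2 libraries a line, members under about 5 CPM, such as TAGLN, rest on few reads (8.67 to 46.7 a library). No paired analysis was possible because the labels number the libraries 1 by 1 over the series and give no replicate number, and the numbers used here only name a library within its condition.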
